A study of Homo sapiens with 6 samples.

Results

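The genes described here are *GPRC6A*, *RFX6* and 4 neighbours, *FAM162B*, *KPNA5*, *VGLL2* and *ROS1*, which lie together in band 6q22 of chromosome 6. They are 6 of the 60651 genes counted, found by their symbols, and they were chosen by their measured difference between the treatment groups, since *GPRC6A* and *RFX6* had come out as higher in tetracycline-treated cells. The values for that difference are therefore a description of these 6 genes and not a test of them. Gene-level counts came from total RNA sequencing of 6 libraries of a human neuroblastoma cell line. Titles put 3 of them in an ethanol group (EtOH, replicates 1 to 3) and 3 in a tetracycline group (Tet, replicates 1 to 3), and the protocol gives 5 days of tetracycline.

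The labels do not settle which cell model this was. The protocol text speaks of SK-N-SH single clones that carry a tetracycline repressor and an inducible *MYCN* construct, under G418 and blasticidin in both groups, whereas the titles name IMR575 and a tag speaks of knockdown. The study describes IMR-5/75, a *MYCN*-amplified line, with an inducible shRNA against *MYCN*, and an SK-N-AS line with inducible *MYCN*. By either account the EtOH cells were uninduced cells of the engineered line, and effects of the construct and of tetracycline itself cannot be told apart in this design. Values of single libraries are given here and below in the order of replicates 1, 2 and 3. *MYCN* itself was at 158, 256 and 156 CPM (counts scaled to library size) under EtOH against 196, 200 and 145 CPM under Tet. The groups overlapped, EtOH replicate 2 was the highest library, and the log2 difference of -0.07 (SE 0.23, adjusted p by edgeR 0.956) changed sign without that replicate (0.21) and without Tet replicate 3 (0.07). *MYCN* RNA therefore does not check the labels in either direction. The study checked its IMR-5/75 knockdown by western blot of MYCN protein, a level that these RNA counts do not measure. The count tables add a doubt, since their headers name the EtOH libraries "-Tet" and the Tet libraries "plusTet", where the hyphen can be read as a minus sign or as a joining mark. Groups were taken from the titles, EtOH and Tet below mean libraries so titled, and every direction rests on those titles. Libraries held between 27933378 and 40498065 counts, and the 12 neuroblastoma markers checked summed to between 704 and 757 TPM (a level per transcript length) in EtOH and between 823 and 987 TPM in Tet, with 7 of the 10 tested ones higher at an unadjusted p under 0.05 by edgeR (5.83% of all genes tested were) and 0 past the adjusted threshold. *GATA3*, a transcription factor of the sympathetic lineage, was at 203 TPM in EtOH, but *TH* and *DBH*, enzymes of catecholamine synthesis, had 1 and 35.5 counts over all libraries, and *GATA2* and *CHGA* were at 0.217 and 0.778 TPM in EtOH. The 10 mesenchymal markers summed to between 35 and 69.5 TPM in EtOH and between 28.0 and 40.3 TPM in Tet. Of these, *COL1A2* and *TWIST2* were listed at 0, *PRRX1* was at 29.7 TPM in EtOH and 13.7 TPM in Tet, and *COL3A1* at 3.67 and 7.13 TPM. Whether the shift in either marker sum has a part in the results below was not tested.

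The 6 genes have unrelated functions. *GPRC6A* encodes a class C G protein-coupled receptor that senses basic amino acids and divalent cations and has been proposed as a receptor of the bone hormone osteocalcin. It acts through Gq, phospholipase C and ERK. *RFX6* encodes a winged-helix transcription factor of the regulatory factor X family, best known for the formation and upkeep of hormone-secreting cells of the pancreatic islet and the gut. *KPNA5* encodes an importin alpha, the adaptor by which proteins with a nuclear localisation signal enter the nucleus. *VGLL2* encodes a co-factor of TEAD transcription factors known from skeletal muscle, and *ROS1* a receptor tyrosine kinase related to ALK that is activated by gene fusions in several cancers. *FAM162B* is little studied. None of these genes is a textbook marker of neuroblastoma.

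In order along the plus strand (GRCh38, counted from 1), *KPNA5* (ENSG00000196911.11, plus strand) spans 116681187 to 116741867 and *FAM162B* (ENSG00000183807.8, minus strand) 116752197 to 116765719. *GPRC6A* (ENSG00000173612.10, minus strand) follows from 116792085 to 116829083 and *RFX6* (ENSG00000185002.10, plus strand) from 116877212 to 116932161. *VGLL2* (ENSG00000170162.14, plus strand) lies at 117265558 to 117273565 and *ROS1* (ENSG00000047936.11, minus strand) at 117287353 to 117425942. *GPRC6A* and *RFX6* are transcribed away from each other, from starts 48.1 kb apart. The widest gap in the row, 333.4 kb, separates *RFX6* from *VGLL2*. No exon base of the first 5 genes lies in an exon of another gene, and 3.84% of those of *ROS1* do, so that counting without regard to strand could not mix the first 5 with an annotated overlapping gene.

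*GPRC6A* and *FAM162B* had an entry among the RefSeq promoter windows (GRCh38.p14, from 250 bases before to 50 bases after the start), as did *VGLL2* and *ROS1*. *RFX6* and *KPNA5* had no entry. The windows of *GPRC6A* (chr6:116829034-116829333, minus strand) and *FAM162B* (chr6:116765670-116765969, minus strand) are shown because these neighbours both had all Tet libraries above all EtOH libraries. Both are written 5′ to 3′, and capitals mark any match to the 5 motifs searched on both strands.
GPRC6A: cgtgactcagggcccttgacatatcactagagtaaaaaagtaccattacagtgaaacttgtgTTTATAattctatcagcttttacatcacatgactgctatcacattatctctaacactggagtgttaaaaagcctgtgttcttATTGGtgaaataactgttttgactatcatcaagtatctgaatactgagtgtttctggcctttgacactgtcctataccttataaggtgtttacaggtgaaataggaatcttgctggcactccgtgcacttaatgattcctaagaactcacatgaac
FAM162B: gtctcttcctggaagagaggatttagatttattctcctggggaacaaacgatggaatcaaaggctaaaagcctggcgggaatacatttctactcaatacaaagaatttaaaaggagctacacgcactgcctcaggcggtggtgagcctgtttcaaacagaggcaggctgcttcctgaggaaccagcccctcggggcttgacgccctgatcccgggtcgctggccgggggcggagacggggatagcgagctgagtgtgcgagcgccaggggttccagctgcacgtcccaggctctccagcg
The motifs were the E-box CACGTG bound by MYC family proteins, the sequence GTTGCC found in RFX sites, the TEAD motif GGAATG, the CCAAT box and the TATA sequence TATAAA. They occur in 7.25%, 12.2%, 14%, 34.6% and 11.5% of the 35097 windows of this length. The *GPRC6A* window held TATAAA (at position 63, on the other strand, as TTTATA) and CCAAT (at position 145, on the other strand, as ATTGG). The *FAM162B* window held none of the 5, and the matches do not overlap each other. The windows also differed in composition. The *GPRC6A* window had 37.7% G and C and 2 CpG dinucleotides, below most windows (medians 58.7% and 14), whereas that of *FAM162B* had 57.0% and 16. A second, overlapping *GPRC6A* window (chr6:116829008-116829307), not shown, had 36.3% and 1 and held the same motifs. These matches describe the letters of the windows only.

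*GPRC6A* had 563, 333 and 565 counts under EtOH against 1171, 1302 and 1609 counts under Tet. Scaled for depth, these were 15.7, 12.0 and 18.7 CPM against 41.5, 36.7 and 40.4 CPM. The groups did not overlap, and the lowest Tet library was well above the highest EtOH library. Means were 15.4 ± 3.33 and 39.5 ± 2.51 CPM (SD, n = 3 each), a log2 fold change of 1.35 (SE 0.20) or 2.56-fold. In these bulk libraries, more cells that transcribe a gene and more RNA per cell cannot be told apart.

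*RFX6*, the next gene, was at 18.3, 21.3 and 17.1 CPM under EtOH against 51.3, 45.8 and 37.6 CPM under Tet. Here too all Tet libraries were above all EtOH libraries, with Tet replicate 3 the lowest of its group. Means were 18.9 ± 2.15 and 44.9 ± 6.91 CPM (SD, n = 3 each), a log2 fold change of 1.25 (SE 0.18) or 2.37-fold.

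*FAM162B* was the least abundant of the detected genes and had the largest fold change of the row. It had 61, 95 and 85 counts under EtOH against 204, 312 and 294 counts under Tet, or 1.70, 3.42 and 2.81 CPM against 7.22, 8.79 and 7.39 CPM. The groups did not overlap. The log2 fold change was 1.57 (SE 0.30), or 2.96-fold, with a wider error than those of *GPRC6A* and *RFX6* at its lower counts.

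*KPNA5* was the most abundant gene of the row and had a smaller difference. It was at 233, 301 and 262 CPM under EtOH against 334, 360 and 304 CPM under Tet. All Tet libraries were above all EtOH libraries, but by only 3 CPM between Tet replicate 3 and EtOH replicate 2, and the log2 fold change was 0.33 (SE 0.16). On the TPM scale the *KPNA5* groups overlapped (55.2, 78.0 and 62.5 TPM against 82.5, 86.0 and 64.9 TPM), unlike those of the other 3 genes.

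*VGLL2* was listed at 0 in all 6 libraries, and 3 counts in a library would be between 0.0825 and 0.143 TPM for a transcript of its length. *ROS1* had 1 count in each of EtOH replicate 1, Tet replicate 1 and Tet replicate 2 and 0 in the others. Neither was tested, and no fold is given, since all libraries were at or under 3 counts. Such limits cover counting error only, and an exact 0 in these tables is given only as listed. Along the row, the 4 genes with at least 61 counts in each library lay on the *KPNA5* side of the 333.4 kb gap and the 2 others beyond it.

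**Figure D1:**
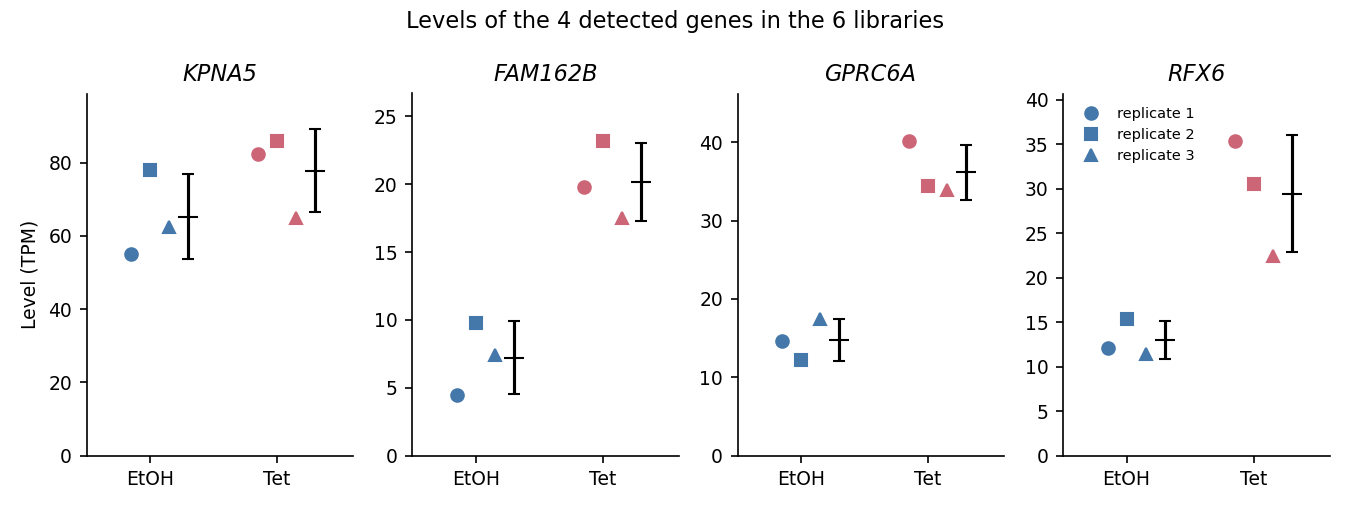
Levels in TPM (y axis) of the 4 detected genes in the EtOH (blue) and Tet (red) libraries, 1 symbol per replicate number, with mean and SD in black. *FAM162B*, *GPRC6A* and *RFX6* were higher in all Tet libraries, from 17.5, 33.9 and 22.4 TPM upwards, whereas the *KPNA5* groups overlapped on this scale.

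The genes were chosen with the contrast between the groups known, *GPRC6A* and *RFX6* for their difference and the others as their neighbours. The adjusted p-values given next are those of the edgeR fit across 22443 genes. *GPRC6A* and *RFX6* both had 0.0428 and lay just inside the threshold of 0.05 (the highest value inside it was 0.0464 and the lowest outside it 0.0529), *FAM162B* had 0.0903 and *KPNA5* 0.513. Thus 2 of the 4 tested genes were called higher, where 0.147% of all genes tested were. All 4 had Tet libraries above all EtOH libraries in CPM, where 9.20% of all genes tested did. Because this contrast chose the genes, nothing is read from either count. By log2 fold change, *FAM162B*, *GPRC6A* and *RFX6* ranked 220, 362 and 491 of the 22443 genes, and *KPNA5* ranked 5002. The 53 genes past the threshold held 3 pairs of neighbours with a gap of at most 200 kb, and *GPRC6A* with *RFX6* was the only one of the 3 on chromosome 6. The other pairs, *HMGCS1* with ENSG00000261604 and ENSG00000229855 with ENSG00000279860, both on chromosome 5, overlapped or lay 3.1 kb apart.

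The direction of all 4 genes was kept in 14 alternative fits, but the calls were lost in many fits with 1 library fewer. *GPRC6A* passed the threshold in 9 of 14 and *RFX6* in 8 of 14 fits. For *GPRC6A* and *RFX6* in this order, the adjusted p was 6.86e-06 and 0.000101 under DESeq2. By edgeR it was 0.00233 and 0.00259 with the replicate block and 0.00167 and 0.00243 with no filter on low counts. Without EtOH replicate 2 it was 0.00922 for both (edgeR). Both lost the call in each fit that left out a library other than EtOH replicate 2 (EtOH replicates 1 and 3 and Tet replicates 1, 2 and 3, with adjusted p from 0.170 to 0.302 for *GPRC6A* and from 0.131 to 0.339 for *RFX6* by edgeR), and *RFX6* lost it under RLE size factors (0.0584). *FAM162B* passed it in 4 of 14, with no filter on low counts (0.0138), with the replicate number as a block (0.00896), under DESeq2 (0.000648) and without EtOH replicate 2 (0.0171). *KPNA5* passed it in 0 of 14, with edgeR, limma-voom or DESeq2 (its unadjusted p by edgeR was 0.0671). Log2 fold changes moved little, from 1.21 to 1.49 for *GPRC6A*, from 1.14 to 1.36 for *RFX6*, from 1.30 to 1.80 for *FAM162B* and from 0.22 to 0.43 for *KPNA5*.

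**Figure D2:**
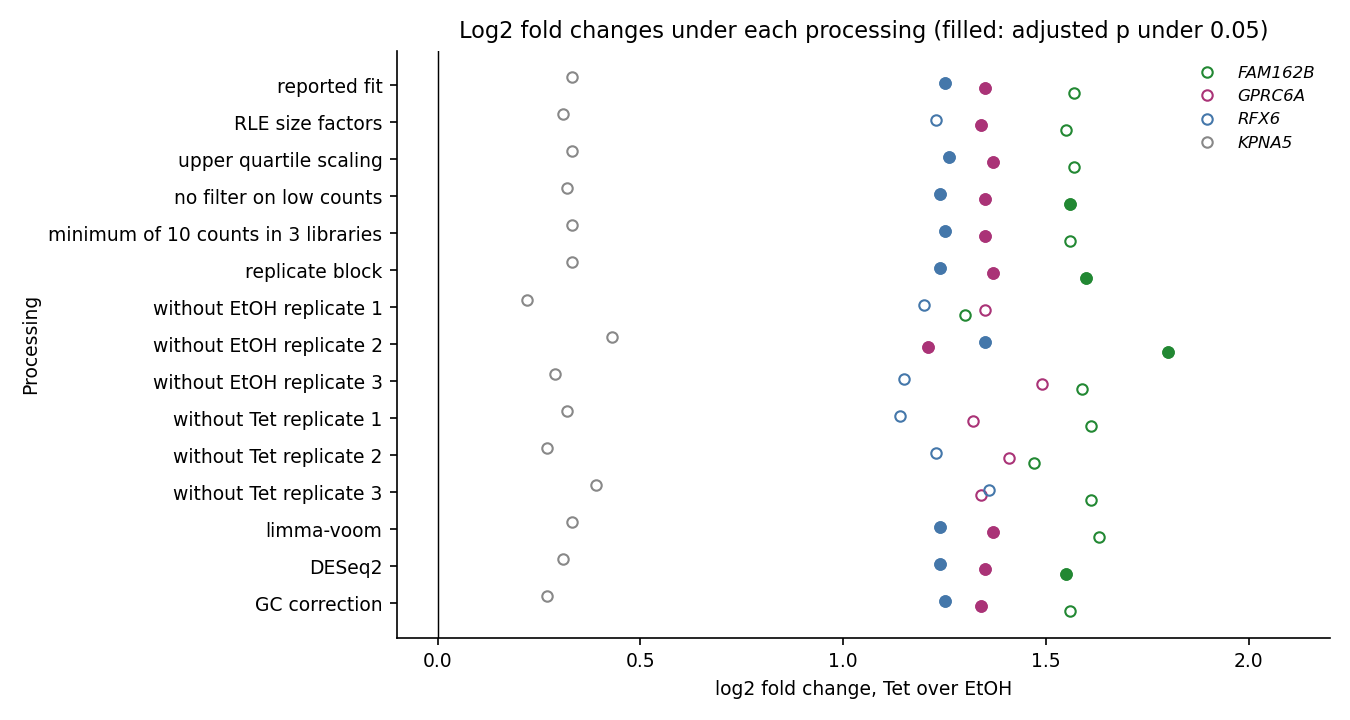
Log2 fold change, Tet over EtOH (x axis), of the 4 detected genes under each processing (y axis), with filled circles where the adjusted p was under 0.05. *GPRC6A*, *RFX6* and *FAM162B* stayed at or above 1.14 in every fit shown, and *KPNA5* stayed at or under 0.43.

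Levels were compared between genes per transcript length. In EtOH, *KPNA5* was highest with 65.2 ± 11.7 TPM, followed by *GPRC6A* with 14.7 ± 2.64, *RFX6* with 13.0 ± 2.14 and *FAM162B* with 7.22 ± 2.69 TPM (SD, n = 3 each). In Tet, the order was the same, with 77.8 ± 11.3, 36.2 ± 3.52, 29.4 ± 6.56 and 20.1 ± 2.89 TPM. *GPRC6A* and *RFX6* did not differ beyond their spread in EtOH, where their values ran from 12.2 to 17.5 and from 11.4 to 15.4 TPM. The ratio of *GPRC6A* to *RFX6* TPM was 1.20, 0.793 and 1.53 under EtOH against 1.14, 1.13 and 1.51 under Tet. These ranges overlap, and the means of 1.18 ± 0.372 and 1.26 ± 0.220 (SD, n = 3 each) differed by less than the SD of either group. The ratio of *GPRC6A* to *KPNA5*, in contrast, was 0.264, 0.156 and 0.280 in EtOH and 0.488, 0.400 and 0.523 in Tet. The ratio of *RFX6* to *KPNA5* was 0.219, 0.197 and 0.182 in EtOH and 0.429, 0.354 and 0.345 in Tet, and neither of these ratios overlapped between the groups. These ratios restate, per length, the values by which the genes were chosen, and nothing is read from them.

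The genes around the row were then compared between the groups in the same fit. Within 1 Mb of the span from *KPNA5* to *ROS1* lay 38 other genes, of which 27 had a count and 21 were tested. By edgeR, 0 of the 21 passed the threshold in either direction, where 0.236% of all genes tested did (0.147% higher and 0.0891% lower). At an unadjusted p under 0.05, 1 was higher and 2 were lower, where 10.8% of all genes were in either direction. In CPM, 3 had all Tet libraries above and 2 all Tet libraries below all EtOH libraries, where 9.20% and 8.29% of all genes did. Their median log2 fold change was -0.19 (range -1.06 to 1.06), against -0.01 over all genes tested. The same count of 0 was found with windows of 500 kb (16 tested) and 2 Mb (35 tested). DESeq2 called 1 higher and 1 lower, where it called 1.18% higher and 0.846% lower of the 23987 genes to which it gave an adjusted p.

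On the side of *KPNA5*, the nearest tested gene was *ZUP1*, a ubiquitin peptidase gene 12.4 kb away, with a log2 difference of 0.26 (SE 0.17, adjusted p by edgeR 0.661). The next was *RSPH4A* (ENSG00000111834.13, plus strand, 116616479 to 116632985), which encodes a radial spoke protein of motile cilia. *RSPH4A* was at 2.76, 3.60 and 3.47 CPM under EtOH against 6.94, 6.20 and 7.39 CPM under Tet. Its groups did not overlap, but its log2 difference of 1.06 (SE 0.23) missed the threshold (adjusted p by edgeR 0.134). It passed with the replicate block (0.0385), under DESeq2 (0.0110) and without EtOH replicate 2 (0.0412). *RWDD1* lay farther out with 0.28 (SE 0.24, adjusted p by edgeR 0.761). Genes with a log2 fold change above 1 (*RSPH4A*, *FAM162B*, *GPRC6A* and *RFX6*) were therefore not an unbroken run, since *ZUP1* and *KPNA5* lie among them with 0.26 and 0.33.

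On the other side, beyond *ROS1*, *DCBLD1* (-0.56, SE 0.45), *GOPC* (0.03, SE 0.17) and the pseudogene *NEPNP* (-0.70, SE 0.31) were the nearest tested genes, with edgeR adjusted p-values of 0.739, 0.981 and 0.465. One tested gene lay within the row, ENSG00000282218, which overlaps *ROS1* and extends past it. Its log2 difference was -0.25 (SE 0.31, adjusted p by edgeR 0.850). Other genes share 95.48% of its exon bases, so its counts are uncertain. The solute carrier gene *SLC35F1* (ENSG00000196376.11, plus strand, 117907264 to 118317676) was at 56.2, 65.0 and 51.4 CPM under EtOH against 32.3, 32.9 and 33.3 CPM under Tet. These groups did not overlap, and the log2 difference was -0.81 (SE 0.15, adjusted p by edgeR 0.0856). *SLC35F1* passed with no filter (0.0443), with the replicate block (0.0136), under DESeq2 (0.0108) and without EtOH replicate 2 (0.0282). The most negative value was that of *FRK*, a kinase gene 620.3 kb away on the *KPNA5* side, with 46.3, 15 and 45.8 CPM under EtOH against 19.8, 10.8 and 21.1 CPM under Tet. Its groups overlapped through EtOH replicate 2, and the log2 difference of -1.06 (SE 0.43, adjusted p by edgeR 0.424) passed with the replicate block (0.0208) and without EtOH replicate 2 (0.0221). Differences of either sign thus lay on the *KPNA5* side of the row.

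**Figure D3:**
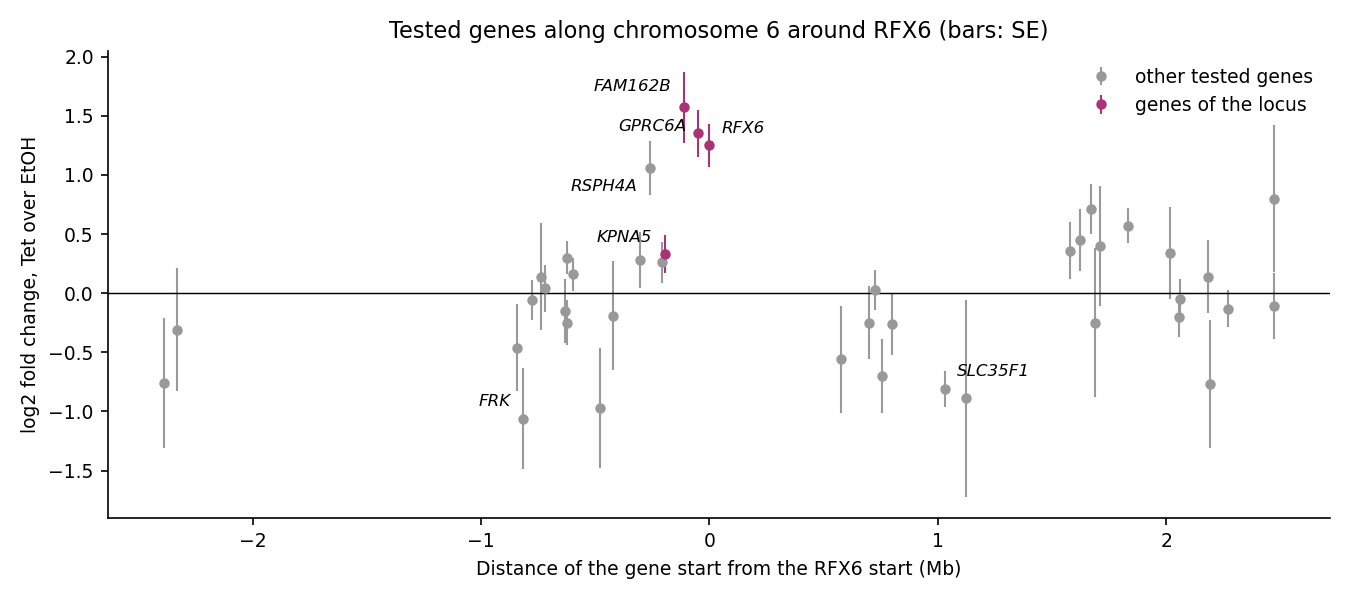
Log2 fold change, Tet over EtOH, with SE bars (y axis) for the 41 tested genes that start within 2.5 Mb of the *RFX6* start, by distance in Mb (x axis). The 4 tested genes of the locus are in purple, and *FAM162B*, *GPRC6A* and *RFX6* sit between 1.25 and 1.57 while *ZUP1* and *KPNA5* beside them sit at 0.26 and 0.33.

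The relatives and known partners of these genes, nearly all elsewhere in the genome, were examined as 10 lists with 145 genes in all, of which 90 were tested. None passed the threshold in either direction by edgeR (0 of 90, where 0.236% of all genes tested did), while 6 were higher and 7 lower at an unadjusted p under 0.05, where 10.8% of all genes were in either direction. DESeq2 called 4 of them higher and 0 lower, where it called 1.18% and 0.846% of all genes with an adjusted p. The median log2 fold change over the 90 genes was 0.07.

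For *GPRC6A*, 9 of 21 other class C and related receptor genes were tested. Their median log2 fold change was -0.61 (range -0.99 to 0.31), 0 passed the threshold, and 2 were lower at an unadjusted p under 0.05. The most abundant were the orphan receptor gene *GPRC5B*, the metabotropic glutamate receptor gene *GRM8* and the GABA-B receptor subunit gene *GABBR2*, at 2.90, 2.21 and 1.47 TPM. *GPRC6A*, at a mean of 25.5 TPM, was above each of these. *GRM8* was at 5.68, 9.08 and 5.12 CPM under EtOH against 3.4, 3.55 and 3.07 CPM under Tet (log2 difference -0.99, SE 0.28, adjusted p by edgeR 0.240). *GRM8* was thus lower in all Tet libraries. Of 20 genes for the proposed ligand and for Gq signalling, 16 were tested with a median of 0.11 (range -0.36 to 1.35) and 0 past the threshold. The highest value was that of *GNA11*, a close relative of *GNAQ*, which had 34.5, 15.5 and 6 counts under EtOH against 10.5, 27.5 and 129.33 counts under Tet. Its groups overlapped, Tet replicate 3 stood apart, and the log2 difference was 1.35 (SE 0.83, adjusted p by edgeR 0.630). The lowest adjusted p was that of *PLCB1*, a phospholipase C of the Gq pathway, with 138, 145 and 142 CPM under EtOH against 227, 270 and 228 CPM under Tet. Its groups did not overlap, and the log2 difference was 0.77 (SE 0.14, adjusted p by edgeR 0.0812). It passed with no filter (0.0347), with the replicate block (0.00913), under DESeq2 (0.0171) and without EtOH replicate 2 (0.0217). *GNAQ*, the Gq subunit itself, *GNAI3* and *PLCB4* were more abundant, at 76.0, 71.1 and 43.5 TPM, with log2 fold changes of 0.36, 0.17 and 0.31 and adjusted p-values of 0.623, 0.869 and 0.492 (edgeR).

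For *RFX6*, 7 of 9 other RFX genes and partners were tested. Their median was 0.07, their range -0.40 to 0.23, and 0 passed the threshold at either an adjusted or an unadjusted p under 0.05 by edgeR, as by DESeq2 at the adjusted one. *RFX7*, *RFX5* and *RFX3* were the most abundant at 70.9, 42.9 and 29.5 TPM, with log2 fold changes of -0.03, -0.40 and 0.07. *RFX6* was at 13.0 TPM in EtOH and 29.4 TPM in Tet, below *RFX3* in EtOH (29.5 ± 5.56 TPM) and within its spread in Tet (29.5 ± 7.10 TPM, SD, n = 3 each).

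Genes of the endocrine and islet lists were partly present, and the most abundant ones are not particular to islets. Of 16 endocrine transcription factor genes, 8 were tested (median 0.31, range -0.42 to 1.18, 0 past the threshold). *NEUROD1*, a neurogenic factor shared by neurons and islet cells, was at 102 TPM, *ISL1*, of motor and sympathetic neurons and islets, at 77.7 TPM and *INSM1*, of neuroendocrine cells, at 26.4 TPM. *ISL1* is also among the neuroblastoma markers summed above. *NEUROG3*, which switches on the endocrine program in the pancreas, had 1 count over all libraries, and *PDX1* was listed at 0. *NKX6-1*, in contrast, was at 11.0 ± 6.17 TPM in EtOH and 13.8 ± 2.84 TPM in Tet (SD, n = 3 each). Its log2 difference was 0.43 (SE 0.34, adjusted p by edgeR 0.727). The 8 islet markers checked, which include *NKX6-1*, *PDX1*, *INS* and *GCG*, summed to between 7.92 and 19.5 TPM in EtOH. In Tet they summed to between 13.1 and 18.6 TPM. *ISL1* was at 41.3, 65.5 and 40.8 CPM under EtOH against 110, 144 and 79.7 CPM under Tet. The groups did not overlap, with a log2 difference of 1.18 (SE 0.27, adjusted p by edgeR 0.142), and *ISL1* passed with no filter (0.00795), with the replicate block (0.00238), under DESeq2 (0.0172) and without EtOH replicate 2 (0.0174). *NEUROD1* and *INSM1* had -0.02 and 0.20. Of 10 foregut endoderm factor genes, 1 was tested, *PROX1*, with 0.43 (SE 0.14, adjusted p by edgeR 0.317). Of 18 islet hormone and secretion genes, 6 were tested with a median of 0.37 (range 0.13 to 1.17) and 0 past the threshold. The calcium channel gene *CACNA1D* and the glucose transporter gene *SLC2A2*, the most abundant, were at 1.10 and 1.08 TPM with 0.37 each. *INS* and *GCG*, the insulin and glucagon genes, were listed at 0, and *ABCC8*, the sulfonylurea receptor gene, was at 2.17 ± 0.497 CPM in EtOH and 4.88 ± 1.30 CPM in Tet (SD, n = 3 each), a log2 difference of 1.17 (SE 0.31, adjusted p by edgeR 0.205, by DESeq2 0.0389). *RFX6* was thus measured in cells in which *INS* and *GCG* were listed at 0 and *NKX6-1* was detected.

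For *VGLL2*, 12 of 15 related genes were tested with a median of -0.18 (range -1.22 to 0.46) and 0 past the threshold. *TEAD1*, a DNA-binding partner of VGLL proteins, was at 95.1 TPM with -0.02 (SE 0.23), the Hippo kinase gene *LATS1* at 71.5 TPM with 0.16 (SE 0.17) and *VGLL4* at 16.6 TPM with 0.24 (SE 0.19). *VGLL3* was at 37.3 ± 14 CPM in EtOH and 15.9 ± 9.10 CPM in Tet (SD, n = 3 each), a log2 difference of -1.22 (SE 0.41, adjusted p by edgeR 0.317). *VGLL3* passed with the replicate block (0.00506). The VGLL genes that were detected were therefore *VGLL3* and *VGLL4*, while *VGLL1*, like *VGLL2*, was listed at 0.

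For *KPNA5*, 17 of 19 importin and exportin genes were tested, with a median of -0.11, a range of -0.49 to 0.32 and 0 past the threshold. *IPO7*, *CSE1L* and *TNPO1* were the most abundant at 354, 338 and 235 TPM, against 71.5 TPM for *KPNA5*. *IPO5* had the lowest unadjusted p, with 194 ± 9.59 CPM in EtOH and 142 ± 11.5 CPM in Tet (SD, n = 3 each), a log2 difference of -0.46 (SE 0.14, adjusted p by edgeR 0.270).

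For *ROS1*, 13 of 16 related genes were tested with a median of 0.13 (range -0.53 to 1.0) and 0 past the threshold. *NELL2*, a secreted ligand of ROS1, was at 141 TPM, *GOPC*, a fusion partner of *ROS1* and its neighbour on chromosome 6, at 94.2 TPM and the phosphatase gene *PTPN11* at 80.4 TPM. *ALK*, the closest relative of *ROS1* and a driver of neuroblastoma, was at 19.6, 15.4 and 20.1 CPM under EtOH against 28.4, 28.9 and 39.1 CPM under Tet (log2 difference 0.81, SE 0.20, adjusted p by edgeR 0.177). *ALK* passed with the replicate block (0.0241) and under DESeq2 (0.0394). The ligand was thus abundant in libraries in which its receptor gene had 3 counts in total. *FAM162A*, the one relative of *FAM162B*, was lower in all Tet libraries, with 25.3 ± 4.45 CPM in EtOH and 15.9 ± 2.55 CPM in Tet (SD, n = 3 each), a log2 difference of -0.67 (SE 0.20, adjusted p by edgeR 0.270), and other genes share 12.89% of its exon bases. *FAM162A* passed with the replicate block (0.0461).

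**Figure D4:**
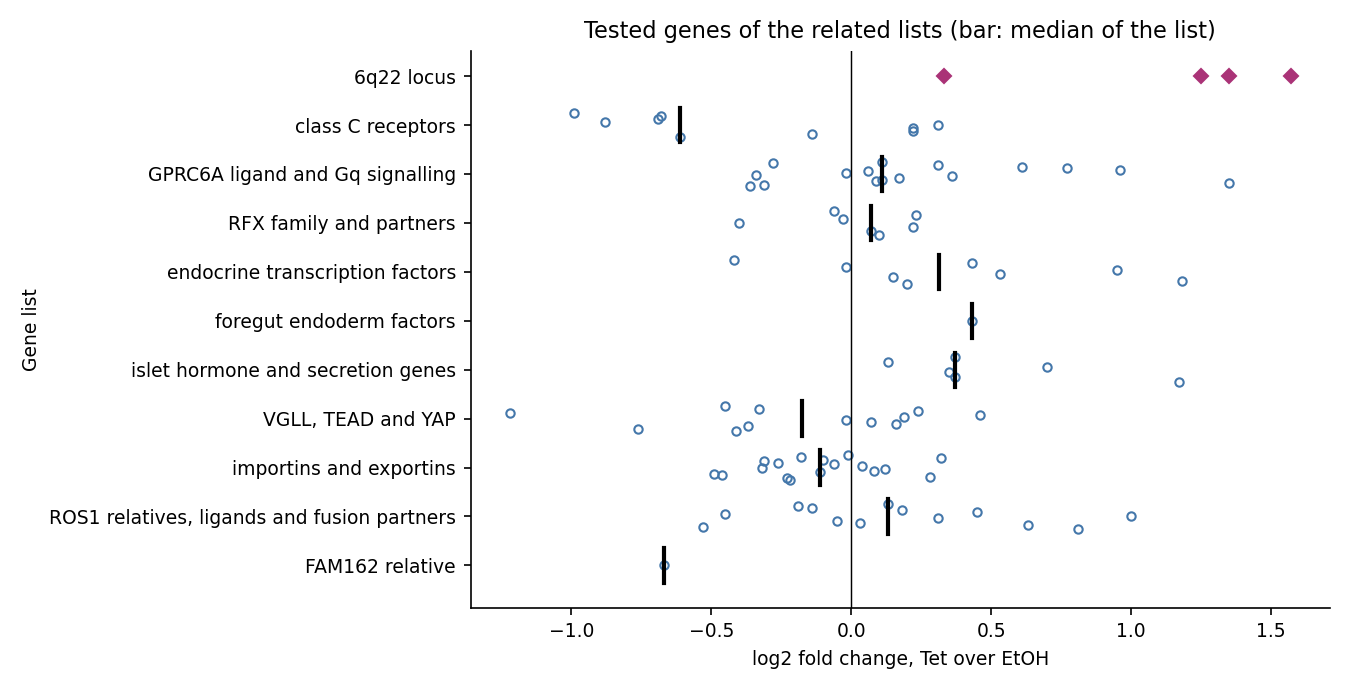
Log2 fold change, Tet over EtOH (x axis), of each tested gene in the 10 lists of relatives and partners (open circles, bar at the median) and of the 4 tested genes of the locus (diamonds). The genes of the locus were chosen with this contrast known, and the list medians lie between -0.67 and 0.43. The highest list gene, *GNA11* (1.35, SE 0.83, with Tet replicate 3 apart), is level with *GPRC6A* (1.35) and below *FAM162B* (1.57). *ISL1* (1.18) and *ABCC8* (1.17) are below *RFX6* (1.25) and above *KPNA5* (0.33).

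The genes most like *GPRC6A* and *RFX6* over the 6 libraries were found by Pearson's r of log2 CPM among 16710 tested genes with a mean of at least 1 CPM. The 6 genes of the locus were left out, so the likeness of *GPRC6A* and *RFX6* to each other was not computed. The libraries fall into 2 groups that differ for these genes, so r mostly follows the group difference and is a description. For *GPRC6A* they were the non-coding gene ENSG00000259976 (0.9987), the zinc finger gene *ZNF568* (0.9975) and the protocadherin gene *PCDHA2* (0.9970), on chromosomes 3, 19 and 5. For *RFX6* they were a Y RNA gene (ENSG00000199273, 0.9987), the potassium channel subunit gene *KCNMB4* (0.9964) and the cyclophilin gene *PPIL2* (0.9945), on chromosomes 7, 12 and 22. A high r did not mean a like fold. In the order named, log2 fold changes were 0.52, 0.94 and 0.69, against 1.35 for *GPRC6A*. The other 3 had 0.53, 0.51 and 0.22, against 1.25 for *RFX6*. None of these most alike genes passed the threshold (adjusted p by edgeR from 0.234 to 0.701). All exon bases of ENSG00000259976 and of the Y RNA gene, and 56.65% of those of *PCDHA2*, are shared with other genes. EtOH replicate 2 was the lowest library for *GPRC6A* and the highest EtOH library for *RFX6*.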

How the data were processed

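Ribosomal RNA was removed enzymatically before stranded paired-end libraries were made. The authors deposited unscaled estimated counts of each gene, in a table for every library. Per the file headers, reads were trimmed, aligned with STAR (2.7.1a, with GRCh38, in the submitters' processing notes), and unique alignments were counted over exons with featureCounts 1.6.4. A pair that met several genes was divided among them, and strand was not used. The notes name version 1.5.1, and the study's methods give strand-aware options that the headers lack. The share of genes with a fractional value was 12.3% to 14.7% per library. Reads with several alignments were lost, so near-identical copies are undercounted. Tables held 60651 genes, and 92 spike-ins with a largest count of 0 were left out. Symbols matched 60437 identifiers (99.6%), and 53025 of 53026 identifiers of the same version had the same coordinates in GENCODE 44.

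The test was laid out for whole counts, so estimated counts were rounded. They were then filtered with filterByExpr, scaled by TMM and fitted with the quasi-likelihood test of edgeR 4.0.16 (R 4.3.3) on the group alone, with Benjamini-Hochberg adjustment over 22443 genes and a threshold of 0.05. The SE is the log2 fold change divided by the root of F. Levels are TMM-scaled CPM, or TPM from exon length. Depth gives 3 counts a level of 0.0741 to 0.107 CPM. The labels number the libraries but name no separate cultures, so p-values measure the spread between these libraries. Alternatives were RLE and upper quartile scaling, no filter, a minimum of 10 counts, limma-voom (limma 3.58.1), DESeq2 1.42.0, the replicate number as a block, each library left out, other windows, and a GC correction chosen after seeing the data. The steps were tested on simulated data. The genes and lists were chosen with earlier results of these data known. Named genes were the 6 of the locus, *MYCN*, the 3 most alike genes, the 3 nearest tested genes on each side with those inside the row or past the threshold, and from each list genes past the threshold or else the 3 with the highest TPM and the one with the smallest p. *SLC35F1*, *FRK*, *NEUROG3*, *PDX1*, *NKX6-1*, *INS*, *GCG*, *VGLL1* and *GNA11* were named after their values were seen. So were the genes of called neighbour pairs and the marker genes.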

Additional observations from a re-analysis of the deposited data

How the results depend on the processing

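The GC correction was chosen after seeing the data. The number of genes past the threshold, 33 higher and 20 lower, moved to 185 and 117 with no filter, 282 and 203 under DESeq2, 421 and 254 with the replicate block and 73 and 48 under GC correction, and the lower count to 13 under RLE size factors. Fits that left out 1 library gave from 0 to 361 higher and from 0 to 331 lower, the most without EtOH replicate 2. By edgeR, 0 passed without Tet replicate 1 or without Tet replicate 3, where 1865 and 2067 genes had an unadjusted p under 0.05. Flanking genes, with 0 in either direction, had 1 higher and 2 lower with the block, 1 and 1 under DESeq2, 1 lower with no filter, and from 0 to 1 higher and from 0 to 2 lower with 1 library left out. The lists, also with 0, had 2 higher with no filter, 3 higher and 2 lower with the block, 4 higher under DESeq2, and from 0 to 3 higher and 0 lower with 1 library left out. *MYCN* changed sign without EtOH replicate 2 (0.21) and without Tet replicate 3 (0.07), within -0.22 to 0.21 over those fits. Why these values moved was not tested, except that fits with a library left out have fewer samples.

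As a check of the replicate numbers, each EtOH and Tet pair of one number was compared after subtracting group means (correlations 0.0603, 0.510 and 0.219). Since 1 pair was not above 0.1, numbers were not treated as a pairing. No correlation was negative, and pairs of unlike number were not compared, so the check cannot show that a pairing is absent. With the replicate block, the log2 fold changes were 1.37 for *GPRC6A*, 1.24 for *RFX6*, 1.6 for *FAM162B* and 0.33 for *KPNA5*. At these depths, *VGLL2* and *ROS1* cannot be compared between the groups.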
